A study of Mus musculus with 9 samples.

Results

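The 37 genes described here are used to follow microglia, the resident macrophages of the brain. They cover the homeostatic state and the state taken up around plaques and dying neurons. Some of the 37, such as Csf1 and Fth1, are also made by other brain cells. The 37 were chosen by name from what is known of microglia, by a rule that uses no measured value but was set with earlier results of these data known. All 37 were found among the 33175 annotated genes of the deposited table. In the healthy brain, microglia depend on signalling through the receptor CSF1R and on the transcription factors PU.1 (gene Spi1) and SALL1, and they survey their surroundings with purine and chemokine receptors such as P2RY12 and CX3CR1. In mouse models of amyloid disease some of these cells lose homeostatic genes and turn on phagocytic, lipid-handling and lysosomal genes. The full form of this change, though not each part of it, needs the lipid receptor TREM2 and its adaptor DAP12 (gene Tyrobp). The genes were grouped by role into survival ligand and receptor, homeostatic surface and secreted genes, transcription factors, pan-myeloid genes, TREM2 receptor and signalling, disease-associated surface and secreted genes, and lysosome, tetraspanin and iron storage genes.

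The samples were hippocampi of 9-month-old female mice, from which RNA was sequenced in 3 groups of 3 libraries. WT vehicle mice were C57BL/6J and were given the blank solvent by mouth on 4 occasions a week. 3xTg vehicle mice, given the same solvent on the same schedule, carried the Swedish APP mutation, tau P301L and a mutant presenilin 1. The 3xTg LP-10d group had the same kind of genotype and received the compound LP-10d by mouth at 10 mg/kg, also 4 times weekly, over 1 month. LP-10d is named in the series title only as a compound with 3 kinase targets. In 3xTg mice the APP and tau transgenes are driven by the Thy1 promoter, which is active in neurons. The labels write the presenilin mutation as M146V, M147V and M148V in 3xTg vehicle replicates 1 to 3 and as M149V, M150V and M151V in LP-10d replicates 1 to 3. No strain is named for the 3xTg mice, so transgenes and strain background cannot be told apart in any comparison with C57BL/6J. Nothing in the labels ties a replicate to a mouse or litter of its own, and p-values therefore cover the spread among these libraries, part of which may be technical.

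Total counts ran from 16582086 to 19170969 per library, and 17396 genes passed the filter on low counts, among them all 37 microglial genes. The common biological coefficient of variation was 0.157. WT vehicle replicate 3 stood apart: mitochondrial genes took 5.04% of its counts, against 2.28% to 2.86% in the other 8 libraries. Choroid plexus markers summed to between 191 and 6334 CPM, counts scaled to library size, over the 9 libraries, and striatal and thalamic markers reached 962 CPM in 3xTg vehicle replicate 2, against 84.8 to 263 CPM elsewhere. Of these striatal and thalamic markers, Tcf7l2 and Prkcd were highest in WT vehicle replicate 3, and the others in 3xTg vehicle replicate 2. Tcf7l2 was at 54.3 CPM in WT vehicle replicate 3 and 3.63 to 26.6 in the other 8 libraries, and Prkcd at 157 and 27.0 to 151. Hippocampal markers (6 genes) summed to 624 CPM in 3xTg vehicle replicate 2, the lowest library, and to 864 to 1047 in the other 8. The part of these differences in tissue content in the microglial values was not tested. Blood leukocyte markers were nearly absent, 14 genes summing to 1.76 to 6.50 CPM per library, with Cd3g, Ngp, Camp, Retnlg and Ms4a1 among those at 0 counts in some libraries. Markers of macrophages at the borders of the brain (8 genes, 0 of them at 0 in any library) summed to 35.2 to 42.0 CPM in WT libraries, 42.2 to 50.6 in 3xTg vehicle and 38.3 to 44.2 in LP-10d libraries, most of it from Stab1, which microglia also express.

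The 37 genes spanned almost the whole range of expression in the tissue. On the length-scaled scale of FPKM, which divides by gene length, Fth1, the ferritin heavy chain that stores iron in many cell types, was the highest at 680, 554 and 625 in WT libraries, 3xTg vehicle and LP-10d libraries. The lysosomal proteases Ctsb, Ctsd and Ctss followed, at 89.9, 60.3 and 33.8 FPKM in WT vehicle libraries. Csf1r was the highest of the members outside the lysosome, tetraspanin and iron storage genes, at 21.2 FPKM in WT vehicle libraries. Its level was at the 87.4th percentile of all genes tested. Tyrobp (14.7), Tmem119 (12.4), Cx3cr1 (11.8) and P2ry12 (8.41 FPKM in 3xTg vehicle) lay within a narrow band and in the same order in all 3 groups. In WT vehicle libraries Trem2 stood at 1.51 FPKM, Itgam at 0.788 and Ptprc at 0.206, while Itgax, the integrin that marks plaque-associated microglia, was lowest at 0.146 FPKM. Counts were few for Itgax, whose raw counts were 5 to 23 per library, and for Lgals3, at 7 to 58 counts.

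**Figure D1:**
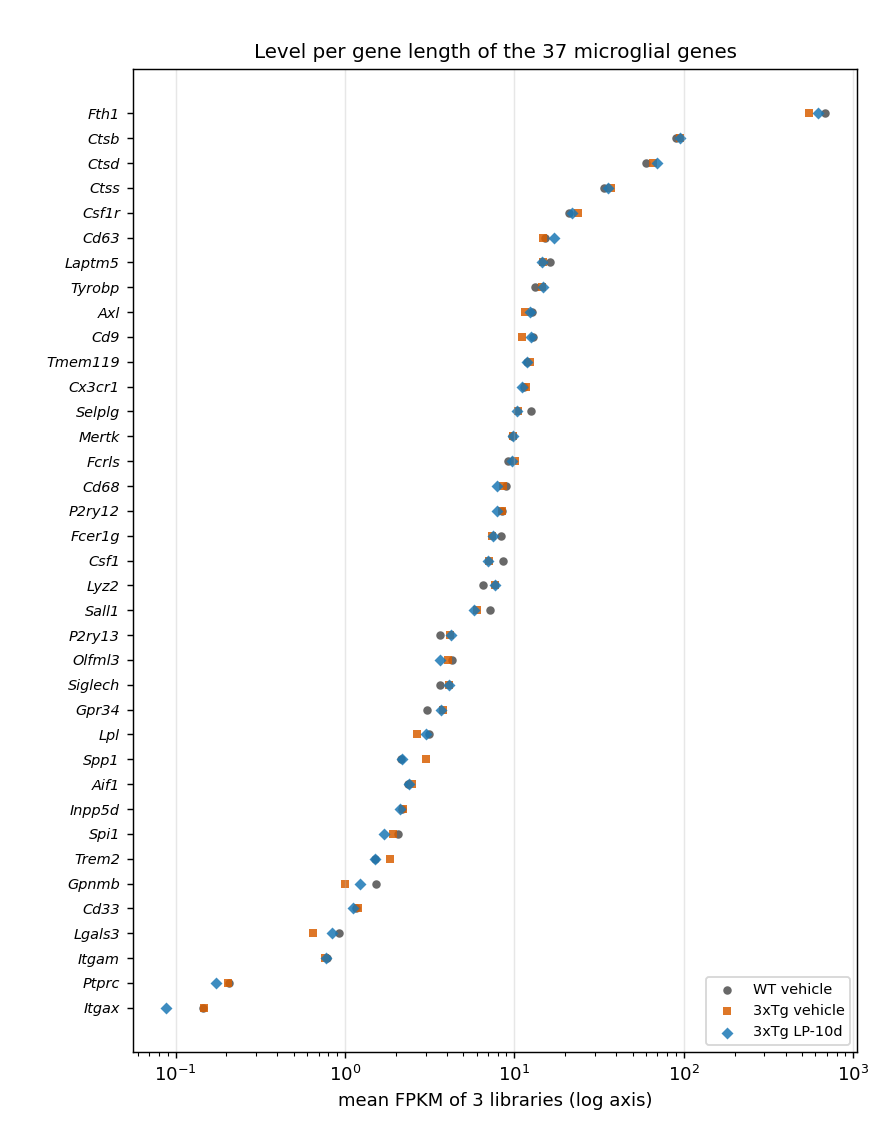
Mean FPKM of each of the 37 microglial genes (log axis) in WT vehicle (circles), 3xTg vehicle (squares) and 3xTg LP-10d libraries (diamonds), with genes ordered by their mean over all libraries. The 3 symbols of a gene lie close together beside the range, which runs from Itgax (0.146 FPKM in WT vehicle) to Fth1 (680 FPKM). Wider gaps include those of Itgax (0.147 in 3xTg vehicle, 0.0873 in LP-10d) and Gpnmb (1.52 in WT vehicle, 0.998 in 3xTg vehicle, 1.23 in LP-10d).

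None of the 37 microglial genes passed the adjusted threshold in 3xTg vehicle hippocampus relative to WT vehicle. Their log2 fold changes had a median of -0.04 and ran from -0.65 (Gpnmb) to 0.44 (Spp1), while the median over all genes tested was 0.00. The fold change was above 0 for 16 genes and below 0 for 21, where 50.2% of all genes were above 0. With edgeR's quasi-likelihood test and Benjamini-Hochberg adjustment, 0 of 37 passed an adjusted p of 0.05, against 0.00575% of all genes tested (1 gene), and the smallest adjusted p was 0.194 (Csf1). Without adjustment, 0 genes were higher and 5 were lower at p below 0.05, where 7.00% and 7.08% of all genes were. Groups did not overlap for 2 genes that were higher and 6 that were lower in 3xTg vehicle, against 9.38% and 7.99% of all genes. The 95% interval of the fold change lay within a doubling or halving for 33 of the 37.

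In LP-10d libraries against 3xTg vehicle, too, none of the 37 passed. The median log2 fold change of LP-10d over 3xTg vehicle was -0.03, with 13 genes above 0 (49.9% of all genes were) and 24 below, and the extremes were Itgax at -0.72 and Lgals3 at 0.34. By edgeR 0 of 37 passed the adjusted threshold, as did 0.00% of all genes tested. At an unadjusted p below 0.05 the counts of higher and of lower members were also 0, against 0.948% and 1.95% of all genes. Olfml3 alone had groups that did not overlap (lower in LP-10d), where 5.81% of all genes were lower and 5.82% higher in that way. Intervals lay within a doubling or halving for 34 of 37. Because this comparison shares the 3xTg vehicle libraries with the one above, a gene that happened to lie high or low in them can move one way in the first comparison and the other way in the second.

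Against WT vehicle, LP-10d libraries had 12 members above 0 (49.5% of all genes were) and 25 below, with a median of -0.08 and 0 of 37 passing in edgeR (0.00% of all genes). Unadjusted, 4 members were lower at p below 0.05 and 0 were higher, where 4.67% and 4.08% of all genes were, and 8 members were lower and 0 higher without overlap, against 6.89% and 7.49% of all genes. When both 3xTg groups were set against WT vehicle, 0 of 37 passed in edgeR (0.00% of all genes) and, at an unadjusted p below 0.05, 6 were lower and 0 higher, against 7.94% and 6.82% of all genes. Of the 37, 14 were above 0 in this comparison, as were 50.0% of all genes, and the median was -0.05. The same number, 6 members, lay lower in all 6 3xTg libraries than in any WT library, against 3.10% of all genes tested: Csf1, Selplg, Gpnmb, Axl, Laptm5 and Fth1. No member was higher in all 6 (3.83% of all genes were). Without WT vehicle replicate 2, the members at an unadjusted p below 0.05 numbered 9 in 3xTg vehicle, 10 in LP-10d and 13 in both groups together against WT vehicle, and without 3xTg vehicle replicate 3 they numbered 2 and 3 in the first and the last of these. These counts take both directions together, and the share of all genes at that p in these fits is not given here. Over all genes, edgeR's adjusted calls without WT vehicle replicate 2 were 11, 0 and 3, against 1, 0 and 0 with all libraries. DESeq2 called Fth1 in 3xTg vehicle against WT vehicle and Csf1 in the pooled comparison, and 0 members in the other 2 comparisons, while limma-voom called 0 members in all 4. In bulk tissue, fewer cells of a type and less RNA per cell cannot be told apart.

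**Figure D2:**
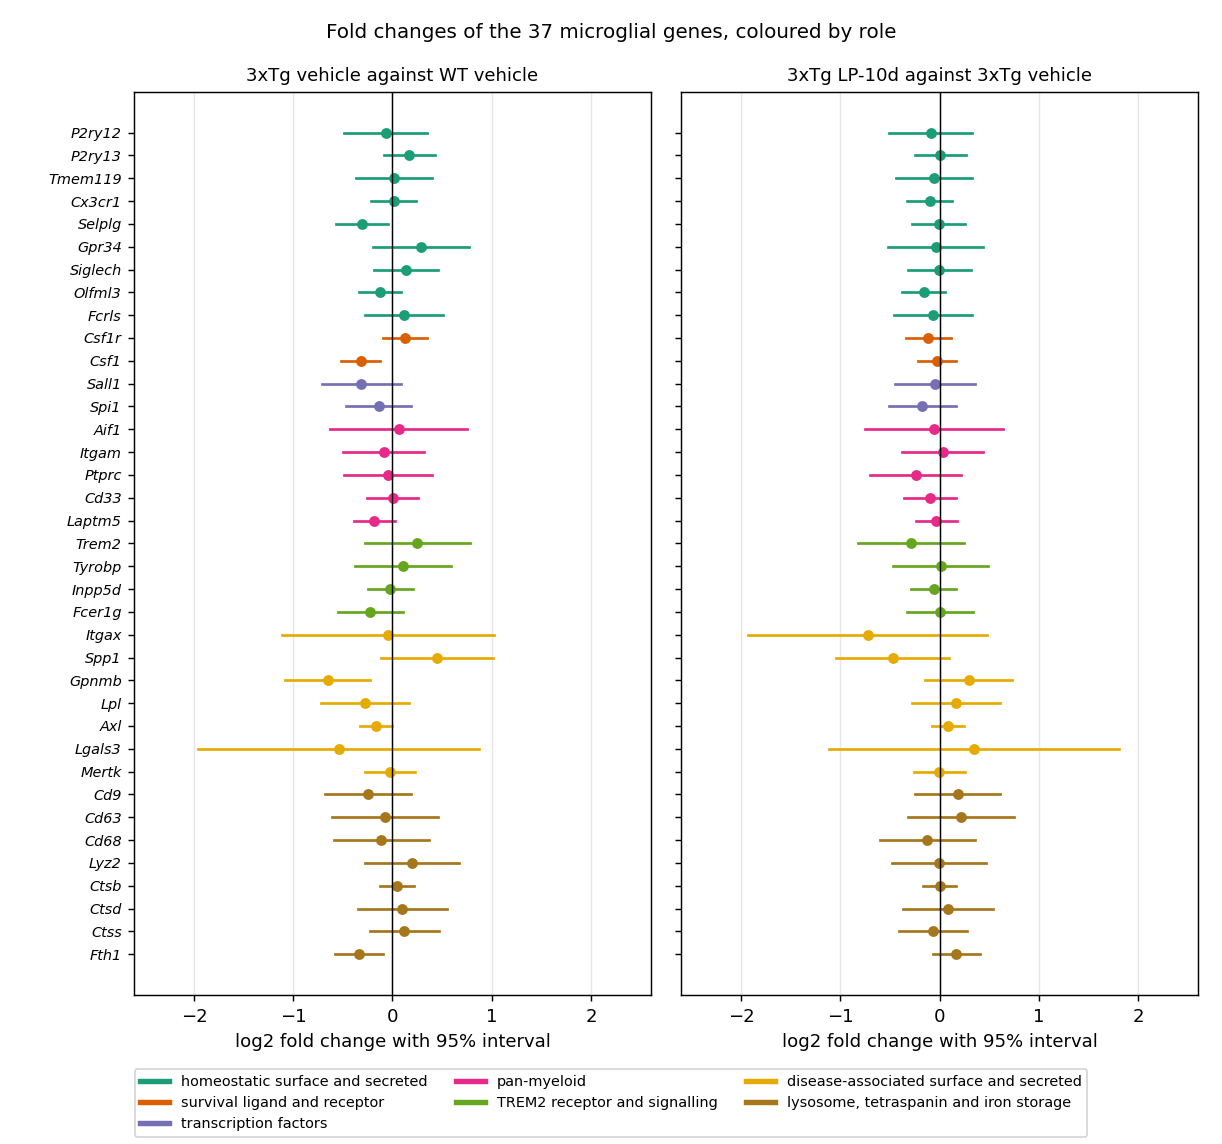
Log2 fold changes (points) with 95% intervals from edgeR for the 37 genes, coloured by role, for 3xTg vehicle against WT vehicle (left) and LP-10d against 3xTg vehicle (right). Intervals of Csf1, Selplg, Gpnmb, Axl and Fth1 lie below 0 on the left, those of all 37 include 0 on the right, and Itgax and Lgals3 have the widest.

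Csf1, one of the ligands that microglia need to survive, and Csf1r, its receptor, had fold changes of opposite sign in 3xTg vehicle. Csf1 (chr3:107741048-107760469, minus strand, mm10) stood at 45.5, 44.4 and 50.1 CPM in WT vehicle replicates 1 to 3, at 37.9, 36.1 and 38.0 in 3xTg vehicle and at 38.9, 37.5 and 33.7 in LP-10d libraries. All 6 transgenic libraries lay below all 3 WT libraries. The log2 fold change of Csf1 was -0.32 ± 0.09 (SE) in 3xTg vehicle (unadjusted p = 0.00401, edgeR adjusted p = 0.194) and -0.35 ± 0.09 in LP-10d libraries against WT vehicle (adjusted p = 0.502). Over both 3xTg groups the log2 fold change of Csf1 was -0.33 ± 0.07, with an edgeR adjusted p of 0.144 and a DESeq2 adjusted p of 0.0138. Without WT vehicle replicate 3, where Csf1 was highest, the pooled value was -0.28 with an edgeR adjusted p of 0.200. LP-10d and 3xTg vehicle differed by only -0.02 ± 0.09 in Csf1, with an interval from -0.22 to 0.17. Csf1 is also made by neurons, astrocytes and oligodendrocytes, so its level in whole hippocampus is not a microglial level alone.

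Csf1r (chr18:61100598-61132149, plus strand) was at 139, 129 and 106 CPM in WT libraries, 139.7, 140.5 and 127 in 3xTg vehicle and 130.2, 122 and 125 in LP-10d libraries. The groups overlapped, with the lowest value in WT vehicle replicate 3. Its log2 fold change was 0.13 ± 0.10 in 3xTg vehicle against WT vehicle (edgeR adjusted p = 0.578) and 0.01 without that library. Il34, the other ligand of this receptor, made by neurons, stood at 41.0 ± 9.20 CPM (SD, n = 3) in WT libraries, 52.1 ± 3.16 in 3xTg vehicle and 47.1 ± 1.07 in LP-10d libraries, with an edgeR adjusted p of 0.312 for 3xTg vehicle against WT vehicle.

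**Figure D3:**
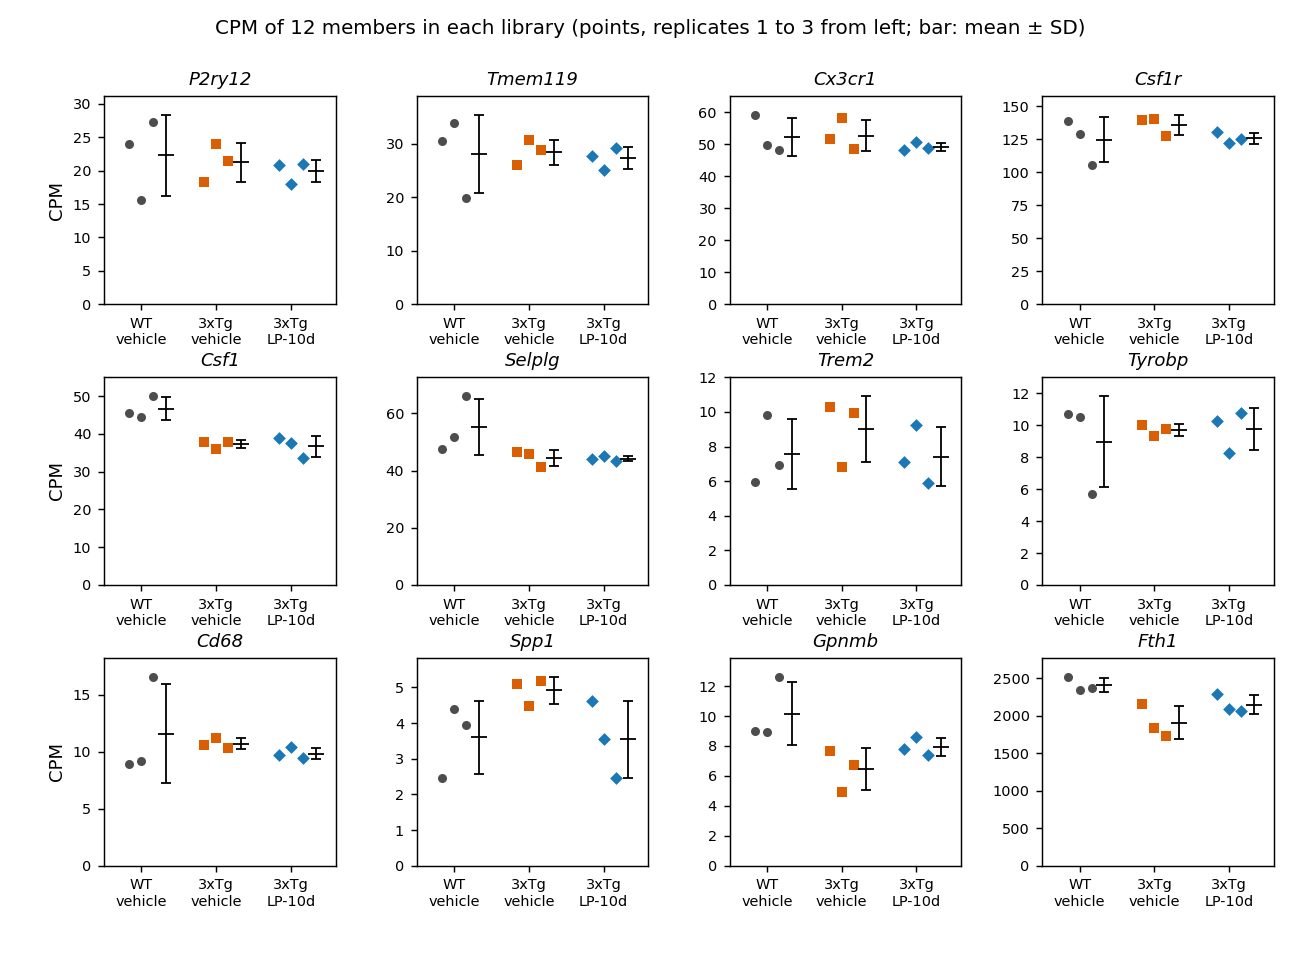
CPM of 12 of the genes in each library (points, replicates 1 to 3 from the left in each group), with the group mean ± SD beside them; every axis starts at 0. Csf1, Selplg, Gpnmb and Fth1 lie lower in the 6 3xTg libraries than in the WT libraries, while P2ry12, Tmem119, Tyrobp and Cd68 have 1 WT library far from its group.

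None of the homeostatic surface and secreted genes passed the adjusted threshold. Of the 9, 6 were above and 3 below 0 in 3xTg vehicle against WT vehicle, with a median log2 fold change of 0.02, and 1 was above and 8 below 0 in LP-10d against 3xTg vehicle, with a median of -0.06. Single libraries set these counts: without WT vehicle replicate 3 the first became 3 above and 6 below 0 (median -0.05), and without 3xTg vehicle replicate 2 it became 4 and 5. The second became 4 above and 5 below without either LP-10d replicate 2 or 3xTg vehicle replicate 2, with medians of 0.00. P2ry12 (chr3:59216272-59262871, minus strand), the purine receptor that steers microglial processes to injury, was at 24.0, 15.6 and 27.3 CPM in WT libraries, 18.3, 24.1 and 21.5 in 3xTg vehicle and 20.8, 18.1 and 21.0 in LP-10d libraries. The 3 WT libraries held both its lowest and its highest value, and enclosed those of the other groups. Its log2 fold changes were -0.07 ± 0.19 in 3xTg vehicle against WT vehicle (interval -0.49 to 0.35) and -0.09 ± 0.19 in LP-10d against 3xTg vehicle (-0.51 to 0.33).

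Tmem119 (chr5:113793729-113800516, minus strand), a surface protein used to tell microglia from other macrophages, was at 30.6, 33.8 and 19.9 CPM in WT libraries, 26.0, 30.6 and 28.8 in 3xTg vehicle and 27.7, 25.1 and 29.3 in LP-10d libraries. WT vehicle replicate 3 was the lowest of all 9 and the groups overlapped. Its log2 fold change in 3xTg vehicle was 0.02 ± 0.17, and -0.19 ± 0.10 without that library (unadjusted p = 0.0887, edgeR adjusted p = 0.445). Cx3cr1 (chr9:119901616-120069879, minus strand), the receptor for neuronal fractalkine, stood at 59.2, 49.8 and 48.1 CPM in WT libraries, 51.6, 58.1 and 48.7 in 3xTg vehicle and 48.1, 50.7 and 49.0 in LP-10d libraries. These values overlapped throughout, with log2 fold changes of 0.01 ± 0.10 and -0.10 ± 0.10 for the transgenic and the treatment comparison and intervals that lay within -0.32 to 0.24.

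Selplg, the P-selectin ligand PSGL-1, was the homeostatic gene with the smallest p in 3xTg vehicle against WT vehicle. It was at 47.6, 51.9 and 66.1 CPM in WT libraries, 46.5, 45.8 and 41.3 in 3xTg vehicle and 44.0, 45.2 and 43.5 in LP-10d libraries. All 6 transgenic libraries were below all WT libraries, but by little: the lowest WT library exceeded the highest 3xTg one by about 1 CPM, and WT vehicle replicate 3 lay far above its group. The log2 fold change was -0.31 ± 0.12 in 3xTg vehicle (unadjusted p = 0.0248, edgeR adjusted p = 0.300) and -0.17 without WT vehicle replicate 3. Selplg and Tmem119 are near neighbours on chromosome 5, and WT vehicle replicate 3 was the highest library for the first and the lowest for the second.

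Olfml3, a secreted protein of microglia, was at 28.1, 23.8 and 28.9 CPM in WT libraries, 24.9, 25.5 and 23.8 in 3xTg vehicle and 21.6, 22.4 and 22.6 in LP-10d libraries. The LP-10d libraries lay below all others, by a step of about 1 CPM. The log2 fold change of Olfml3 was -0.16 ± 0.10 in LP-10d against 3xTg vehicle (edgeR adjusted p = 1.00) and -0.28 ± 0.10 against WT vehicle (unadjusted p = 0.0150, adjusted p = 0.555). P2ry13, a purine receptor encoded next to P2ry12, was at 9.17 to 9.60 CPM in WT libraries and 10.3 to 10.8 in 3xTg vehicle, without overlap, for a log2 fold change of 0.17 ± 0.12 (edgeR adjusted p = 0.513), and at 9.37 to 11.7 in LP-10d libraries. The receptors Gpr34, Siglech and Fcrls had log2 fold changes of 0.29, 0.14 and 0.11 in 3xTg vehicle with overlapping groups, and each had its lowest value in WT vehicle replicate 3.

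The lineage transcription factors Spi1 and Sall1 did not pass the adjusted threshold in any of the 4 comparisons. Spi1, which encodes PU.1, was at 6.34, 5.35 and 5.28 CPM in WT libraries, 5.26, 5.56 and 4.57 in 3xTg vehicle and 4.63, 4.86 and 4.17 in LP-10d libraries. LP-10d libraries were below all WT libraries and overlapped with 3xTg vehicle. Against WT vehicle the LP-10d libraries had a log2 fold change of -0.31 ± 0.15 (unadjusted p = 0.0636, edgeR adjusted p = 0.586). Sall1, which maintains microglial identity and is present in some neural progenitors, was at 30.6, 33.4 and 52.7 CPM in WT libraries, 30.7, 34.2 and 29.1 in 3xTg vehicle and 32.3, 29.8 and 28.7 in LP-10d libraries. The value of WT vehicle replicate 3 stood alone and the remaining 8 lay between 28.7 and 34.2. Without that library the log2 fold change of Sall1 in 3xTg vehicle went from -0.31 ± 0.18 to -0.04.

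Since Spi1 is itself a member, promoters of the others were read for its core motif. The letters GAGGAA, on either strand, were searched in RefSeq promoter windows of 300 bases (250 before the start and 50 after it, GRCm38.p6), which 29 of the 37 genes had. Of their 34 windows 44.1% held the motif, against 28.3% of all 32851 windows, and within 100 bases upstream of the start the shares were 20.6% and 9.82%. A match is a description of letters and does not show that the factor binds there. To show where these letters sit, 3 of the 7 promoters with a match in the last 100 bases are printed below 5′ to 3′ on the strand of the gene, ending at the base before the start, with the motif or its reverse complement in capitals; Trem2 is at chr17:48346301-48346400 (plus strand), P2ry13 at chr3:59210883-59210982 (minus strand) and Itgam at chr7:128062540-128062639 (plus strand).
Trem2: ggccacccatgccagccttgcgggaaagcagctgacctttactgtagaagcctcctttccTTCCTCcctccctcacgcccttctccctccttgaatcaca
P2ry13: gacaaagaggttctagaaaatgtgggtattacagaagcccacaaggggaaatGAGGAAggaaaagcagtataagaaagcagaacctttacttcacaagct
Itgam: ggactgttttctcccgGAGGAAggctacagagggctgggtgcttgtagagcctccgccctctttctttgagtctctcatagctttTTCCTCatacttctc
Itgam alone of the 3 carried 2 copies, 1 in each orientation.

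Of the 5 genes shared by all myeloid cells, 2 were above and 3 below 0 in 3xTg vehicle against WT vehicle (median log2 fold change -0.05), and 1 was above and 4 below without either WT vehicle replicate 3 or 3xTg vehicle replicate 1. Aif1, which encodes the widely stained microglial protein IBA1, was at 3.71, 5.24 and 1.95 CPM in WT libraries, 4.21, 3.18 and 4.03 in 3xTg vehicle and 3.50, 2.96 and 4.50 in LP-10d libraries. The WT libraries spanned the whole range, from WT vehicle replicate 3 at the bottom to replicate 2 at the top. Its log2 fold changes were 0.06 ± 0.31 and -0.06 ± 0.31 in the transgenic and the treatment comparison, with intervals that lay within -0.75 to 0.75. Laptm5, a lysosomal membrane protein of blood cells and microglia, was at 60.5, 57.5 and 71.7 CPM in WT libraries, 55.3, 56.0 and 55.6 in 3xTg vehicle and 57.5, 51.7 and 54.0 in LP-10d libraries. It was lower in the 6 transgenic libraries, with LP-10d replicate 1 all but level with WT vehicle replicate 2. The pooled log2 fold change of Laptm5 was -0.20 ± 0.08 (unadjusted p = 0.0313, edgeR adjusted p = 0.304) and -0.11 without WT vehicle replicate 3. Itgam, Ptprc and Cd33, which encode the integrin CD11b, the phosphatase CD45 and a sialic acid receptor, had log2 fold changes of -0.09, -0.05 and 0.00 in 3xTg vehicle and overlapped in every comparison. Most of the exons of Itgam (68.7%) are shared with the same-strand readthrough model Gm49368, which is listed at 0 CPM. How reads in shared bases were counted is not given, so the level of Itgam may be too low. The same holds for Ctsd, which shares 34.4% of its exon bases with the same-strand gene Gm49369, also listed at 0 CPM.

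TREM2 binds lipids and apolipoproteins and signals through the adaptor DAP12, whose short cytoplasmic tail holds an activation motif built around a pair of tyrosines. Fcer1g encodes an adaptor with the same kind of motif that serves Fc receptors. The coding sequences of both motifs, read from GENCODE M21 transcripts of GRCm38, are given to show how alike in layout and unlike in letters they are. Capitals mark the codons of the tyrosines and of the leucine that follows each of them 3 residues later. The stretch of Tyrobp covers codons 92 to 106 of 114 and spans exons 4 and 5 (chr7:30415670-30415675 and chr7:30417344-30417382, plus strand), and that of Fcer1g covers codons 65 to 79 of 86 in exons 4 and 5 (chr1:171230067-171230072 and chr1:171229889-171229927, minus strand).
Tyrobp: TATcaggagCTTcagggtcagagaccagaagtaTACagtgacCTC
Fcer1g: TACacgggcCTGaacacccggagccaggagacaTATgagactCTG
In both genes the tyrosines are 10 codons apart, counted as the codons between them.

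Trem2 and its partners did not separate the groups. Trem2 (chr17:48346401-48354147, plus strand) was at 5.94, 9.80 and 6.95 CPM in WT libraries, 10.3, 6.81 and 9.96 in 3xTg vehicle and 7.11, 9.25 and 5.87 in LP-10d libraries. Values differed by over 3 CPM within each group, and the groups overlapped. Its log2 fold change was 0.25 ± 0.24 in 3xTg vehicle (interval -0.28 to 0.78, edgeR adjusted p = 0.635) and -0.29 ± 0.24 in LP-10d against 3xTg vehicle (interval -0.82 to 0.24). Tyrobp was at 10.7, 10.5 and 5.67 CPM in WT libraries, 10.05, 9.31 and 9.75 in 3xTg vehicle and 10.3, 8.30 and 10.8 in LP-10d libraries. Of its 9 values 8 lay between 8.30 and 10.8, and WT vehicle replicate 3 was the exception. The log2 fold change of Tyrobp in 3xTg vehicle, 0.11 ± 0.22, became -0.14 ± 0.13 without that library. Fcer1g and Inpp5d, the latter a phosphatase that damps this pathway, had log2 fold changes of -0.22 ± 0.15 and -0.02 ± 0.10 in 3xTg vehicle and of 0.01 and -0.06 in LP-10d against 3xTg vehicle, all with overlapping groups.

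Of the 7 disease-associated surface and secreted genes, 6 were below 0 in 3xTg vehicle against WT vehicle (median log2 fold change -0.17) and 4 were above 0 in LP-10d against 3xTg vehicle (median 0.09). Without either WT vehicle replicate 2 or 3xTg vehicle replicate 1, 4 were below 0 in the first comparison, and without either LP-10d replicate 2 or 3xTg vehicle replicate 3, 3 were above 0 in the second. With all libraries Spp1, the secreted phosphoprotein osteopontin, was the one above 0 in the first comparison. It was at 2.46, 4.40 and 3.95 CPM in WT libraries, 5.10, 4.48 and 5.17 in 3xTg vehicle and 4.63, 3.56 and 2.47 in LP-10d libraries. All 3xTg vehicle libraries were above all WT libraries, though the gap between WT vehicle replicate 2 and 3xTg vehicle replicate 2 was under 0.1 CPM, and LP-10d libraries ranged from WT to 3xTg vehicle levels. The log2 fold changes of Spp1 were 0.44 ± 0.25 in 3xTg vehicle (unadjusted p = 0.110, edgeR adjusted p = 0.449) and -0.47 ± 0.26 in LP-10d against 3xTg vehicle (unadjusted p = 0.0937, adjusted p = 1.00), the second with an interval from -1.04 to 0.10.

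Gpnmb, a membrane glycoprotein of lipid-laden phagocytes, had the fold change farthest from 0 of all members in 3xTg vehicle against WT vehicle, and it was below 0. It was at 8.97, 8.91 and 12.6 CPM in WT libraries, 7.68, 4.94 and 6.75 in 3xTg vehicle and 7.79, 8.60 and 7.41 in LP-10d libraries. The 6 transgenic libraries were all below the WT libraries, with LP-10d replicate 2 close to them. Gpnmb had a log2 fold change of -0.65 ± 0.19 in 3xTg vehicle (unadjusted p = 0.00701, edgeR adjusted p = 0.218) and -0.47 without WT vehicle replicate 3. In LP-10d against 3xTg vehicle it was 0.29 ± 0.20, with overlapping groups. Axl, a receptor tyrosine kinase that clears apoptotic cells, stood at 65.1, 66.0 and 64.9 CPM in WT libraries, 55.5, 60.7 and 58.3 in 3xTg vehicle and 59.8, 60.9 and 64.4 in LP-10d libraries. WT libraries were tightly grouped and above all others, with LP-10d replicate 3 just under them. The log2 fold change of Axl was -0.17 ± 0.07 in 3xTg vehicle (unadjusted p = 0.0419, edgeR adjusted p = 0.341) and -0.08 ± 0.07 in LP-10d against WT vehicle.

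Itgax was at 0.514, 1.21 and 0.389 CPM in WT libraries, 0.421, 1.08 and 0.599 in 3xTg vehicle and 0.564, 0.296 and 0.384 in LP-10d libraries. The highest library was WT vehicle replicate 2, and the groups overlapped. With a log2 fold change of -0.04 ± 0.48 in 3xTg vehicle and an interval from -1.11 to 1.03, a doubling of Itgax could not have been told from no change at this depth. Lgals3, which encodes the lectin galectin-3, varied more: its highest library, again WT vehicle replicate 2 at 3.04 CPM, held 7.97 times the CPM of the lowest, 3xTg vehicle replicate 3. WT vehicle replicate 2 was also the library with the highest sum of choroid plexus markers, and the part of that tissue in these values was not tested. Lpl, the lipoprotein lipase, and Mertk, a relative of Axl, had log2 fold changes of -0.28 ± 0.20 and -0.02 ± 0.11 in 3xTg vehicle with overlapping groups.

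Among the 8 genes of lysosome, tetraspanin and iron storage, 4 were above and 4 below 0 in 3xTg vehicle against WT vehicle. The count above 0 fell to 2 without WT vehicle replicate 3 and was 6 without WT vehicle replicate 2. Fth1 (chr19:9980598-9985098, plus strand) was at 2519.5, 2339.8 and 2367 CPM in WT libraries, 2151, 1841 and 1730.1 in 3xTg vehicle and 2289, 2089 and 2058 in LP-10d libraries. All 6 transgenic libraries were below the WT libraries, and 2 of the 3 LP-10d libraries lay between the highest and the next 3xTg vehicle library. The log2 fold change of Fth1 was -0.34 ± 0.11 in 3xTg vehicle (unadjusted p = 0.0101, edgeR adjusted p = 0.240, DESeq2 adjusted p = 0.0438) and 0.17 ± 0.11 in LP-10d against 3xTg vehicle. Oligodendrocytes hold much of the ferritin of the brain. Their 6 markers, 0 of them at 0 in any library, summed to 7013 to 7511 CPM in WT libraries, 5025 to 6351 in 3xTg vehicle and 5855 to 7824 in LP-10d libraries, with Mbp at 4110.3 ± 327, 3167 ± 348 and 3604 ± 581 CPM (SD, n = 3 each). Of these 6 markers, 3 were lower without overlap in 3xTg vehicle against WT vehicle (7.99% of all genes were), Mbp among them, and 2 had fold changes above 0. Mag, Cnp and Mog overlapped, with Mag at 282, 329 and 234 CPM in WT libraries and 306, 300 and 256 in 3xTg vehicle. The part of oligodendrocytes in the Fth1 values was not tested.

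Cd68, a lysosomal protein used to score phagocytic microglia, was at 8.91, 9.22 and 16.6 CPM in WT libraries, 10.6, 11.2 and 10.3 in 3xTg vehicle and 9.71, 10.4 and 9.44 in LP-10d libraries. Apart from WT vehicle replicate 3, all values lay between 8.91 and 11.2. Its log2 fold change in 3xTg vehicle was -0.11 ± 0.21 with that library and 0.23 ± 0.10 without it (unadjusted p = 0.0539, edgeR adjusted p = 0.382). Ctsb, the steadiest of the 37, had 514 to 579.7 CPM in WT libraries and 558.8 to 585.9 in the other groups, and a log2 fold change of 0.05 ± 0.08 in 3xTg vehicle. Ctsd and Ctss, with log2 fold changes of 0.10 ± 0.20 and 0.12 ± 0.15, and Lyz2, the lysozyme of myeloid cells, with 0.19 ± 0.21, overlapped between groups. Without WT vehicle replicate 3, Ctsb, Ctsd and Ctss were at -0.01, -0.15 and -0.06, and Lyz2 at 0.04. The tetraspanins Cd9 and Cd63 were at -0.24 ± 0.19 and -0.07 ± 0.24 in 3xTg vehicle and at 0.18 and 0.22 in LP-10d against 3xTg vehicle, and both had their highest library in WT vehicle replicate 2.

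Replicates lay farther apart in the WT group than in the others: the median absolute log2 distance of the 37 genes from the mean of the other 2 replicates was 0.22, 0.25 and 0.40 in WT vehicle replicates 1 to 3, and 0.08 to 0.14 in the 6 3xTg libraries. Over all genes tested it was 0.18, 0.20 and 0.26 in the WT libraries and 0.10 to 0.14 in the others, so the wider spread of the WT group was not a feature of the members alone. WT vehicle replicate 3 held the lowest of the 9 values for 15 of the 37 genes (40.5%, against 28.3% of all genes tested) and the highest for 10 (27.0%, against 26.3%). Against the mean of the other 2 WT libraries, 10 members were lower by more than 0.5 on the log2 scale (27.0%, against 12.2% of all genes), led by Aif1 (-1.02), Ctsd (-0.90), Cd63 (-0.86) and Tyrobp (-0.85). Another 2, Cd68 (0.84) and Sall1 (0.71), were higher by more than 0.5 (5.41%, against 8.86% of all genes). The log2 difference of WT vehicle replicate 3 from the other 2 WT libraries rose weakly with transcript length. The Spearman correlation was 0.29 over the members and 0.26 over all genes tested, and the cause was not tested. Members lay in opposite directions in this library: Tmem119, Fcrls and Gpr34 were at 19.9, 15.5 and 4.39 CPM, their lowest values, while P2ry12, Selplg and Gpnmb were at 27.3, 66.1 and 12.6, their highest. Leaving WT vehicle replicate 3 out turned the sign of 11 of the 37 fold changes of 3xTg vehicle against WT vehicle, none of which passed the adjusted threshold with or without it, and moved their median from -0.04 to -0.09.

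**Figure D4:**
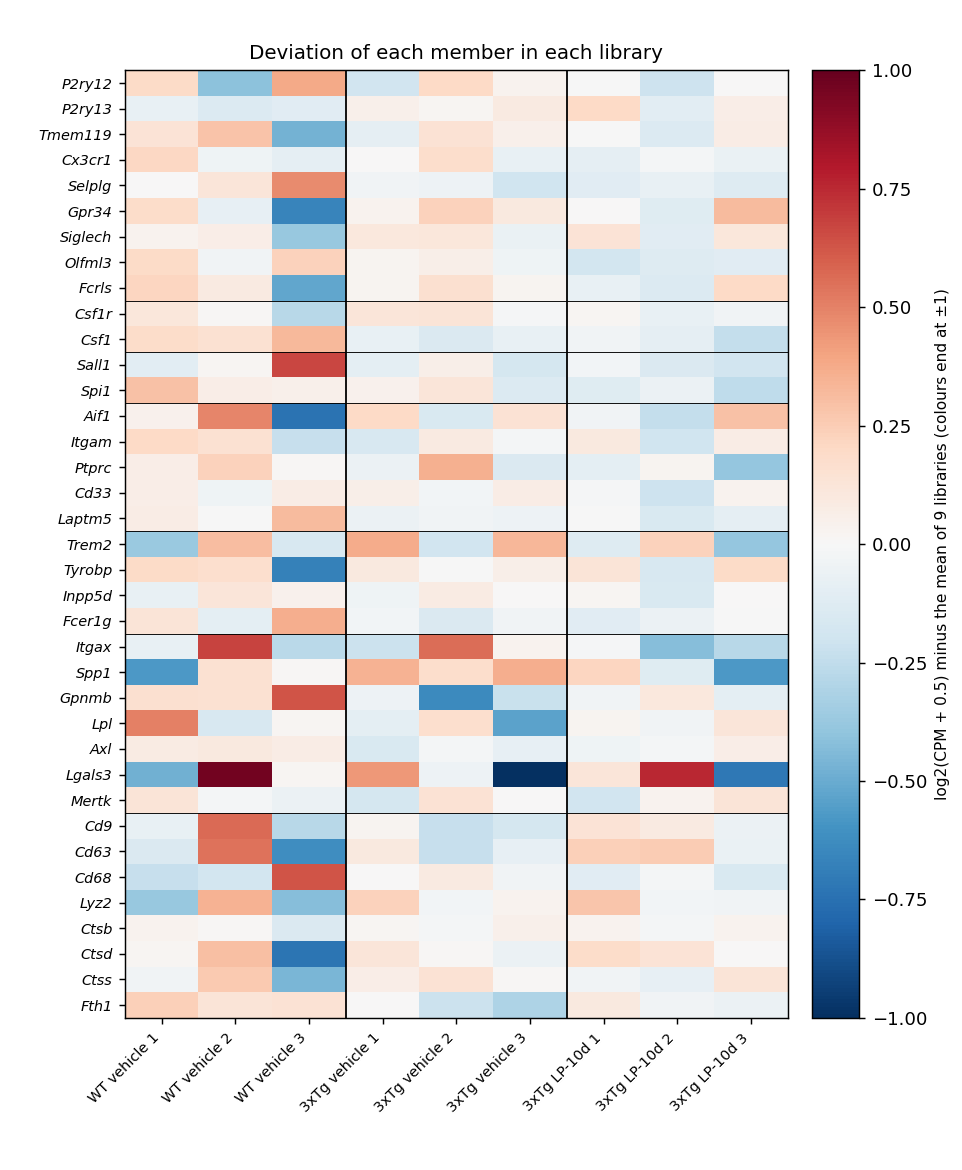
Deviation of each of the 37 genes in each library from its mean over the 9 libraries, as log2(CPM + 0.5), with red above and blue below and colours ending at ±1; vertical lines part the groups and horizontal lines the roles. Strong colours fall in the row of Lgals3, in WT vehicle replicate 3 (Aif1, Ctsd, Tyrobp and Gpr34 blue, Sall1, Gpnmb and Cd68 red), and elsewhere for Itgax in WT vehicle replicate 2 (0.67) and Gpnmb in 3xTg vehicle replicate 2 (-0.64).

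Other genes of the same pathways gave 0 calls in edgeR in either comparison. Of 15 genes of CSF1R and TGF-beta signalling and microglial lineage, 2 were higher and 1 lower in 3xTg vehicle at an unadjusted p below 0.05, where 7.00% and 7.08% of all genes were. Mef2c, a transcription factor of neurons as well as microglia, had the smallest p: 99.0 ± 18.6 CPM in WT libraries, 189 ± 27.9 in 3xTg vehicle and 129.7 ± 23.7 in LP-10d libraries (SD, n = 3 each), for log2 fold changes of 0.93 ± 0.17 (edgeR adjusted p = 0.0936) and -0.55 ± 0.17 in LP-10d against 3xTg vehicle (unadjusted p = 0.00943, adjusted p = 1.00), both without overlap. Runx1, a haematopoietic factor at 1.25 CPM in WT vehicle, was lower without overlap at -0.64 ± 0.26 in 3xTg vehicle. Of 12 tested genes around TREM2 signalling, Apoe, the apolipoprotein made by astrocytes and by disease-associated microglia, had a log2 fold change of -0.32 ± 0.10 in 3xTg vehicle (edgeR adjusted p = 0.220) with 1959 ± 153 CPM in WT libraries and 1569 ± 25.7 in 3xTg vehicle, without overlap. Blnk, an adaptor downstream of the kinase SYK, stood at 0.51 ± 0.18 in 3xTg vehicle and -0.40 ± 0.18 in LP-10d against 3xTg vehicle.

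The 19 further homeostatic genes had a median log2 fold change of 0.01 in 3xTg vehicle and -0.08 in LP-10d against 3xTg vehicle. P2ry6, a receptor that triggers phagocytosis, had the smallest p of them, at 6.20 ± 1.70 CPM in WT libraries and 3.88 ± 0.563 in 3xTg vehicle (log2 fold change -0.67 ± 0.21, edgeR adjusted p = 0.234, without overlap). Of 25 further disease-associated genes only 17 passed the filter on low counts, with medians of 0.01 and -0.03. Fabp5, a fatty acid binding protein, was at 55.4 ± 10.0 CPM in WT libraries, 67.9 ± 3.08 in 3xTg vehicle and 70.9 ± 3.93 in LP-10d libraries (edgeR adjusted p = 0.333 in 3xTg vehicle). The 17 lysosome genes leaned in opposite directions in the 2 comparisons that share the 3xTg vehicle libraries: 15 were below 0 in 3xTg vehicle against WT vehicle (median -0.11) and 15 above 0 in LP-10d against 3xTg vehicle (median 0.06). Of all genes, 50.2% and 49.9% were above 0 in these comparisons. How far the lysosome counts depend on single libraries is not given here. Lamp2, a lysosomal membrane protein, stood at 68.9 ± 11.7, 53.2 ± 2.20 and 62.0 ± 6.86 CPM in WT libraries, 3xTg vehicle and LP-10d libraries (edgeR adjusted p = 0.272 in 3xTg vehicle).

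No erythrocyte or astrocyte marker passed the adjusted threshold in edgeR, with smallest adjusted p values of 0.0844 and 0.237. Erythrocyte markers (5 genes, 0 of them at 0 in any library) summed to 33.4 to 75.4 CPM in WT libraries, 106 to 177 in 3xTg vehicle and 72.4 to 114 in LP-10d libraries. Hba-a1, which encodes alpha globin, was at 19.7 ± 9.27, 82.6 ± 17.8 and 53.5 ± 15.5 CPM, with an edgeR adjusted p of 0.0844 in 3xTg vehicle against WT vehicle. Not all markers moved in this way: Hba-a2 was at 2.23, 3.88 and 2.06 CPM in WT libraries and at 3.95, 1.59 and 2.89 in 3xTg vehicle, with overlap. Astrocyte markers (6 genes) summed to 2322 to 2688 CPM in WT libraries, which overlapped with 2255 to 2340.2 in 3xTg vehicle and enclosed 2501 to 2586 in LP-10d libraries. Of these 6, Gfap and Gja1 were lower without overlap in 3xTg vehicle against WT vehicle (7.99% of all genes were), and 2 others had fold changes above 0. Gfap was at 517, 554 and 531 CPM in WT libraries and at 457, 335 and 434 in 3xTg vehicle. The part of these cells in the values of the microglial genes was not tested.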

How the data were processed

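RNA of 9 hippocampal libraries was analysed from the processed tables. The authors deposited raw counts for 55471 genes and FPKM values with gene names and positions for the 33175 of these with a count; FPKM of a gene divided by its count differed between libraries only by the total count (largest relative deviation 6.66e-16). Per the submitters' processing notes, mm10 was the genome build. Neither the aligner nor the read counter is given in the sources used here, and the same holds for strand handling, so reads of overlapping genes such as Csf1r and Hmgxb3 (15.1% of the exon bases of Csf1r, opposite strand) or Ctsb and Fdft1 (12.8%, opposite strand) may be shared. All 37 deposited positions equal those of GENCODE M21.

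Counts were tested with edgeR 4.0.16 in R 4.3.3: filterByExpr (17396 genes), TMM scaling, 1 fit of the 9 libraries with group means, the quasi-likelihood test (the newer method, not the legacy one) and Benjamini-Hochberg adjustment over all genes tested, with a threshold of 0.05. SE is the log2 fold change divided by the root of F, and the 95% intervals use its t quantile. CPM are computed from the counts with TMM-scaled library sizes. Levels of different genes are compared in FPKM only. With 3 libraries a group, the smallest p of an exact two-sided permutation test is 0.1, so none was used. Within groups, chi-square per degree of freedom between libraries was 4.99 to 51.1, so no library was a copy of another of its group. Pairs from different groups were not compared in this way. The fits were tested on simulated counts.

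The members, their roles, the pathway lists and the marker lists were chosen with earlier results of these data known. Values in every library are given for 10 fixed members and for the 6 members with the smallest p in each comparison; of each pathway list up to 4 genes with the smallest p may be named. Alternatives were other scalings and filters, the legacy test, DESeq2 1.42.0, limma 3.58.1 (voom, and on log2(FPKM + 1) and log2(FPKM + 0.1)), a replicate block, fits of only the libraries compared, and leaving out each library; a fit that dropped both WT vehicle replicate 3 and replicate 2 of 3xTg vehicle was added after seeing the data.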

Additional observations from a re-analysis of the deposited data

How the results depend on the processing

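In edgeR, 0 members passed the adjusted threshold under every scaling, filter and left-out library tried. DESeq2 called 1 member in 3xTg vehicle against WT vehicle (Fth1) and 1 in both 3xTg groups against WT vehicle (Csf1); the cause was not tested, and over all genes it called 340 and 307 where edgeR called 1 and 0. Medians against WT vehicle depended on scaling. For 3xTg vehicle the median was -0.004 with library totals in place of TMM, and 0.01 and 0.02 in limma on log2(FPKM + 1) and log2(FPKM + 0.1). RLE and upper-quartile scaling gave -0.04 and -0.05. With library totals and these limma fits, medians were -0.03, -0.02 and -0.03 for LP-10d, and -0.007, -0.003 and -0.005 for both 3xTg groups. The median of 3xTg vehicle against WT vehicle moved from -0.04 to -0.13 when WT vehicle replicate 3 and replicate 2 of 3xTg vehicle were both left out, an alternative chosen after seeing the data. Leaving out each library in turn gave medians of -0.10 to 0.03 in that comparison, -0.06 to 0.00 in LP-10d against 3xTg vehicle, -0.12 to -0.03 in LP-10d against WT vehicle and -0.11 to 0.00 in both 3xTg groups against WT vehicle. The count of members at an unadjusted p below 0.05 ran from 2 to 9, 0 to 1, 2 to 10 and 3 to 13 in these comparisons, highest without WT vehicle replicate 2 (9, 10 and 13, in those with WT vehicle). The share of all genes at that p in these settings is not given here, so the counts have no background beside them. Up to 11 of 37 uncalled fold changes turned sign in a setting. With a replicate block 0 members were called and the medians were -0.02, -0.03, -0.08 and -0.05. Of 9 same-numbered pairs of libraries 4 had deviations correlated above 0.1. Between 3xTg vehicle and LP-10d, same-numbered libraries had correlations of 0.17, 0.10 and 0.38 for replicates 1 to 3, and differently numbered ones -0.30 to 0.18. Whether the numbers pair libraries cannot be told from so few correlations. For both 3xTg groups against WT vehicle, no fit of only the libraries compared was run, since it uses all 9. Requiring 1 CPM in 3 libraries left 36 members. At raw counts of 5 to 58 per library, the intervals of Itgax and Lgals3 reached past a doubling or a halving in every comparison.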
